A study of Mus musculus with 12 samples.

Results

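The response of JMJD3 knockdown neural stem cells to transforming growth factor beta (TGFb) was measured by comparing the 3 arrays titled "sh JMJD3 + TGFb" with the 3 titled "sh JMJD3 - TGFb", which are 6 of the 12 arrays of the series. The cells were mouse neural stem cells obtained from the cerebral cortex of E12.5 embryos, and they carried an shRNA against JMJD3 by stable transfection. Both groups were that same line, and they differed in the addition of TGFb at 5 ng/ml or of vehicle for 2.5 h. The other 6 arrays came from a control line that carried a random shRNA and received the same treatments, again with 3 arrays for each. The array titles name no other shRNA against JMJD3. The source labels of the knockdown line hold the name sh2 and do not say whether it marks an shRNA or a clone. The labels also give neither the number of clones nor the promoter that drives the shRNA. Nothing in the labels ties the replicates to separate cultures. The p-values therefore reflect the spread among these arrays alone, and that spread may be technical.

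TGFb binds a pair of receptor kinases, TGFBR2 and TGFBR1, which phosphorylate the receptor-regulated Smad proteins SMAD2 and SMAD3. These join SMAD4, enter the nucleus and bind short DNA elements at target genes, among them genes for inhibitors that shut the pathway off again. Bone morphogenetic proteins (BMP) use other receptors and the receptor-regulated Smads SMAD1, SMAD5 and SMAD9. JMJD3 is the product of Kdm6b and takes methyl groups off histone H3 at lysine 27.

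Signals are given as log2 of the scanner software's processed signal relative to the 75th percentile of its array, so that a level of 0 equals that percentile, and changes are differences of these levels with the standard error (SE) of the fit. "Rose", "fell" and "changed" are used of genes with a limma adjusted p under 0.05 over all 24139 genes tested. The 75th percentile lay between 3175 and 4462 over the 12 arrays, the share of probes well above background between 70.3% and 78.4%, and the number of saturated spots was 0. The number of arrays limits the precision, and the median SE of a change was 0.10. Across genes, which are not independent replicates, the knockdown arrays of 1 treatment correlated with r between 0.995 and 0.997, and those of different treatments with r between 0.991 and 0.995. The 12 arrays lay on 4 slides. Knockdown vehicle arrays lay on slides 1, 2 and 3, and knockdown TGFb arrays on slides 3, 4 and 4, so that only slide 3 held both. For this reason values from a fit with slide as a block, and the difference of the single pair of arrays on slide 3, are given where they bear on a result.

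Kdm6b, the targeted gene, stood at -0.84, -0.73 and -0.75 on the control vehicle arrays and at -0.67, -0.69 and -0.59 on the control TGFb arrays. In the knockdown line its levels were -1.95, -1.90 and -1.96 with vehicle and -2.01, -2.12 and -2.01 with TGFb. All 6 knockdown arrays lay below all 6 control arrays. Without TGFb that was a 2.24-fold lower signal (-1.16 ± 0.05, limma adjusted p = 1.1e-07), measured by a probe on chromosome 11 from 69212177 to 69212236 (mm9). TGFb gave Kdm6b a value of -0.11 ± 0.05 in knockdown cells (adjusted p = 0.299), which did not pass the test.

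The labelled cell type was checked against marker genes on the 6 knockdown arrays. All 10 neural stem cell and radial glia markers, among them Nes, Sox2, Pax6 and Vim, were well above background on every one. Their summed signal relative to the 75th percentile ran from 251 to 278 with vehicle and from 271 to 292 with TGFb. Markers of other cells were also seen, namely 5 of 6 for neurons, 4 of 4 for astrocytes and 6 of 6 for the oligodendrocyte lineage. Of the microglia and macrophage markers 5 of 9 were above background on all 6 arrays and Aif1 and Tyrobp on none. For endothelium the count was 4 of 6, with Cdh5 and Tie1 above background on none. For pericytes and meningeal fibroblasts it was 3 of 8, with Pdgfrb on none, and of the 3 erythroid markers matched on the array it was 1. Summed signals of the neuronal (13.5 to 14.5 with vehicle, at most 14.2 with TGFb), microglial (3.45 to 3.81, 3.39 to 3.97), endothelial (0.431 to 0.515, 0.447 to 0.653) and erythroid markers (0.0223 to 0.0290, 0.0232 to 0.0342) overlapped between treatments. Those of the astrocyte markers overlapped too (3.31 to 3.70, 3.54 to 4.36), whereas the oligodendrocyte sum (40.7 to 43.0, 35.0 to 38.1) and the pericyte sum (4.16 to 4.72, 3.77 to 4.01) were lower on all TGFb arrays. Because these are bulk samples, fewer cells of a type and less RNA per cell cannot be told apart. The part of these cells in the results was not tested.

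TGFb changed 2290 of the 24139 genes in knockdown cells (9.49%). The calls were 1143 higher (4.74%) and 1147 lower (4.75%), while the median change of all genes was -0.02. Large changes were mostly rises. At least 2-fold, 319 genes were higher (1.32%) and 81 lower (0.336%). At least 4-fold, there were 90 higher and 5 lower, and at least 16-fold, 9 higher and 0 lower. The 3 vehicle and 3 TGFb arrays did not overlap for 2288 of the 2290 called genes, and for 5802 (24.1%) of all genes tested. With slide as a block, 1630 of the 2290 and 380 of the 400 genes past 2-fold were called again. Of 78 further probes for genes past 2-fold, 73 had the sign of the probe used and 57 passed the test.

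**Figure D1:**
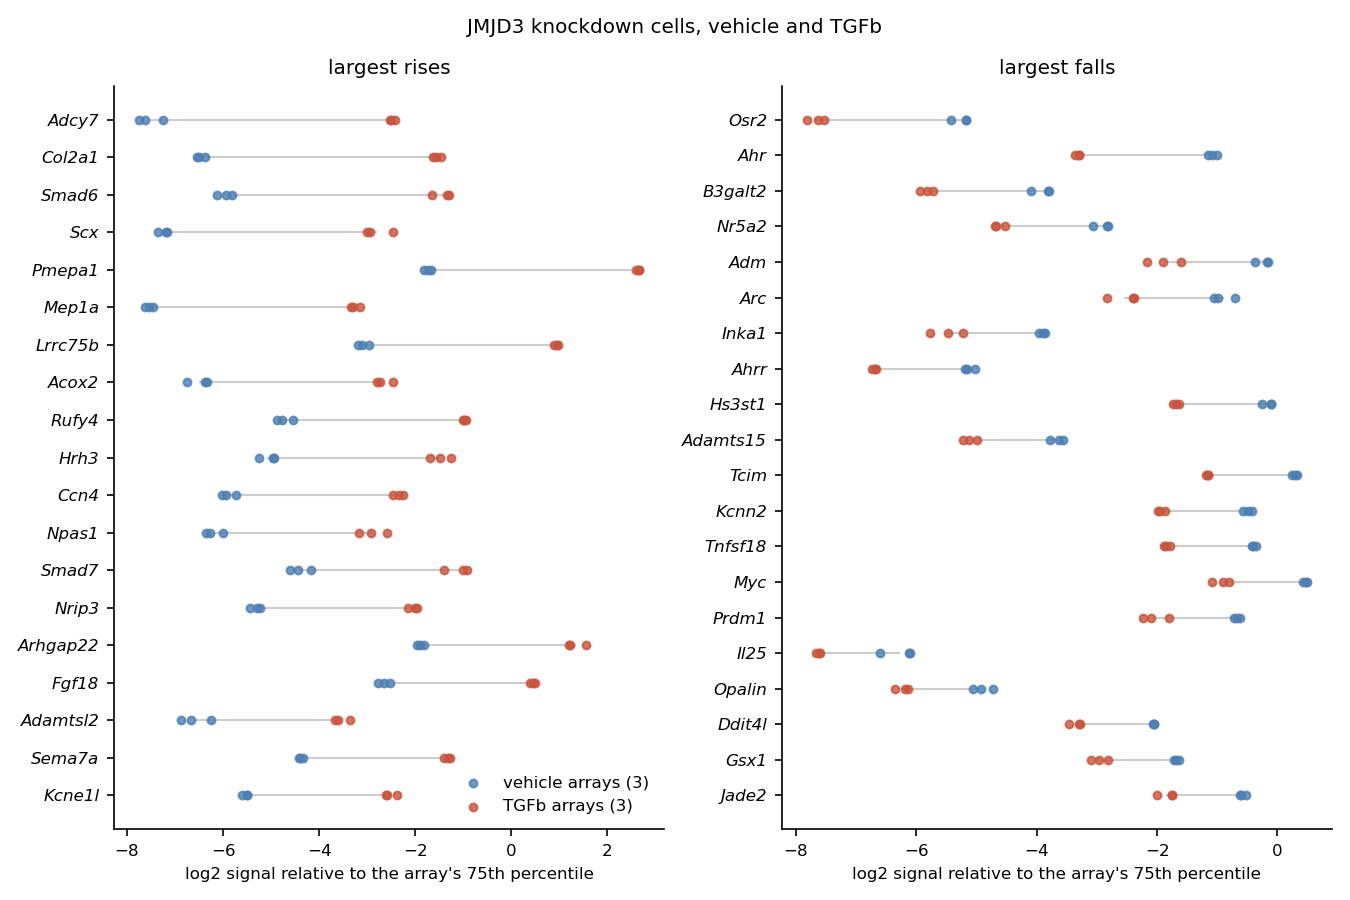
Log2 signal (75th percentile of the array set to 0) on each vehicle array (blue) and each TGFb array (red) of JMJD3 knockdown cells, for 19 of the 20 largest rises (left) and the 20 largest falls (right) among named genes well above background on all 6 arrays. Grey lines join the group means, and the groups do not overlap for any gene shown because the choice of genes required it.

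Inhibitors of the TGFb pathway were among the largest rises. Of 14 measured TGFb feedback regulators, 7 rose and 0 fell (50% called), with a median change of 0.55. For all genes the median was -0.02, and 9.49% were called in either direction, 4.74% higher and 4.75% lower. Every list count below is to be read beside these shares. Pmepa1, whose product sequesters receptor-regulated Smads, went from -1.68, -1.73 and -1.81 to 2.66, 2.59 and 2.65 (probe on chromosome 2 from 173049966 to 173050025, mm9). Its change of 4.38 ± 0.05 (20.8-fold) was large against replicate groups that each spanned a narrow range, and a further probe gave 4.39. The inhibitory Smad gene Smad6 stood at -5.82, -5.94 and -6.13 with vehicle and at -1.66, -1.35 and -1.30 with TGFb, a rise of 4.52 ± 0.11 (adjusted p = 2.8e-10). Smad7, the other inhibitory Smad gene, moved from -4.17, -4.61 and -4.45 to -1.40, -0.92 and -1.0, a rise of 3.31 ± 0.18. In both genes the TGFb array on slide 3 was the lowest of its group, and the values within slide 3 were 4.46 for Smad6 and 3.05 for Smad7. Ldlrad4, another protein that holds back receptor-regulated Smads, rose by 2.79 ± 0.13, and the co-repressor gene Skil (SnoN) by 2.42 ± 0.11. The co-repressor genes Tgif1 and Tgif2 rose by 0.69 ± 0.05 and 0.41 ± 0.07. Ski, the relative of Skil, had a value of 0.81 ± 0.39 with a wide error (adjusted p = 0.283), and the ubiquitin ligase gene Smurf2 one of 0.19 ± 0.06 (adjusted p = 0.0772).

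Promoters were searched for short elements, because Smad proteins bind the letters CAGACA and the palindrome GTCTAGAC, and BMP-regulated Smads bind GGCGCC. RefSeq sequences (GRCm38.p6) from 250 bases before to 50 after the start, the first listed for each gene, were matched for 193 of the 319 genes that rose and 47 of the 81 that fell at least 2-fold. Both strands were read. The 4 sequences shown are those of the inhibitory Smad gene Smad6, of the BMP target Id2, of the cyclase gene Adcy7, also among the largest rises, and of Npas1, which holds 2 of the elements. Each runs 5′ to 3′ on the gene's strand to the base before the start, except that of Smad6, which ends 4 bases after it, and capitals mark the matches.
Smad6, chr9:64022056-64022309, minus strand: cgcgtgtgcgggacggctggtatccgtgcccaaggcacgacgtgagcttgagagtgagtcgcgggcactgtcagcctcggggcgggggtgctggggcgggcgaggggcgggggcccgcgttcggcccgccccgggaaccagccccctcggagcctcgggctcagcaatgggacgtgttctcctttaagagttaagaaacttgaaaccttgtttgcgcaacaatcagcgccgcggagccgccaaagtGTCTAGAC
Id2, chr12:25096093-25096342, minus strand: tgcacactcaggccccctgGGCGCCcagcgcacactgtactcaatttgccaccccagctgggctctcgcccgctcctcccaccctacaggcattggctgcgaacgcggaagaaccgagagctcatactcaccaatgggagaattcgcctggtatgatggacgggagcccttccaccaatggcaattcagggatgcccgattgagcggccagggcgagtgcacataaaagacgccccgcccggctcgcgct
Adcy7, chr8:88282742-88282991, plus strand: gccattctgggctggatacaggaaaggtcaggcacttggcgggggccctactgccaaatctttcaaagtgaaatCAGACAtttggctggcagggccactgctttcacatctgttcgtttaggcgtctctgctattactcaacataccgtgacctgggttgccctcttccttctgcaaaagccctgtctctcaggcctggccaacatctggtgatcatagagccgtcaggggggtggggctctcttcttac
Npas1, chr7:16476781-16477030, minus strand: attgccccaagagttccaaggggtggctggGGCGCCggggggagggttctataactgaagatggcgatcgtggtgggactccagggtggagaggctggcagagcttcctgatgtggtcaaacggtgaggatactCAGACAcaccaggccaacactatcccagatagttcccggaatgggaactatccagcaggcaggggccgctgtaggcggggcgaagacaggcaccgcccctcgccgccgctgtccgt
The palindrome of Smad6 begins 4 bases before the start and spans it. The GGCGCC of Id2 begins 231 bases before the start, the CAGACA of Adcy7, whose gene has 3 promoters in the table, 176 bases before it, and the CAGACA and GGCGCC of Npas1 116 and 220 bases before it. A further GGCGCC of Npas1 lies after the start, outside the stretch shown.

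Among the promoters of genes that rose at least 2-fold, 25.9% held CAGACA, against 10.6% of those that fell, 17.4% of the 13599 promoters of genes tested and 21.0% of all 27025. The palindrome GTCTAGAC occurred in 2 of the 193, those of Smad6 and Klhl6 (1.04%), in 0 of the 47, and in 0.228% of the promoters of genes tested. GGCGCC was held by 17.1% of the risen, 25.5% of the fallen and 18.8% of the tested genes. The AP-1 element TGACTCA was held by 5.18%, 4.26% and 3.85%, and the E-box CAGCTG, which basic helix-loop-helix factors bind, by 27.5%, 34.0% and 15.4%. The sets differed in base composition, with a median GC content of 61.7% in the risen, 59.3% in the fallen and 59.3% in the tested promoters, and 52.7% in all. These shares are descriptions of letters in a window, with no test.

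Early TGFb target genes formed the list with the highest median change, 1.2 (1.16 with slide as a block, 1.30 within slide 3). Of 19 measured members 14 rose and 3 fell (89.5% called, beside 9.49% of all genes). Rhob, a small GTPase gene, rose by 2.56 ± 0.08 and Ccn1, which encodes a matricellular protein, by 2.14 ± 0.13. Tgfbi, named for its induction by TGFb, went from -5.03, -4.90 and -4.92 to -2.92, -2.95 and -3.01, a rise of 1.99 ± 0.09. The docking protein gene Nedd9 rose by 1.59 ± 0.08 and the LIM domain gene Lmcd1 by 1.21 ± 0.06. Members that fell were Klf10 (-1.06 ± 0.12), Tsc22d1 (-0.49 ± 0.07) and Cdkn2b (-0.47 ± 0.05). Klf10 is also called TGFb-inducible early gene, and Cdkn2b encodes a CDK inhibitor. Klf10 stood at 2.12, 2.13 and 1.98 with vehicle and at 0.98, 1.24 and 0.84 with TGFb, with no overlap. Cdkn2b stood at -0.63, -0.58 and -0.64 and then at -1.13, -1.06 and -1.09, and a further probe gave -0.62. The CDK inhibitor gene Cdkn1a, another known TGFb target, had a value of -0.15 ± 0.12 (adjusted p = 0.547).

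Targets of BMP signalling included risen genes and genes that did not pass the test. Of 9 measured, 4 rose and 0 fell, which is 44.4% called beside 9.49% of all genes. Their median was 0.08 (0.00 with slide as a block). Id2, an inhibitor of basic helix-loop-helix factors, moved from 0.88, 0.96 and 0.85 to 2.98, 3.01 and 3.03, a rise of 2.12 ± 0.05 (adjusted p = 5.5e-10). Its relative Id1 stood at 1.78, 1.74 and 1.66 with vehicle and 2.93, 3.14 and 3.1 with TGFb (1.33 ± 0.08). Smad9, a BMP-activated Smad, rose by 1.05 ± 0.09 (0.70 with normexp background correction in place of the scanner software's) and the bHLH gene Atoh8 by 0.56 ± 0.12. Id3 and Id4 did not pass the test. Id3 was at 1.71, 1.94 and 1.86 and then at 1.78, 1.51 and 1.64, so that its groups overlapped (-0.20 ± 0.08, adjusted p = 0.206), and Id4 had a value of -0.01 ± 0.08. In control cells Id3 had a change of 0.47, and the difference of -0.66 between the lines did not pass the test (adjusted p = 0.0818).

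Receptor genes of the superfamily moved both ways, with 3 of 12 higher and 3 lower. That is 50% called beside 9.49% of all genes, with a median of 0.13. The TGFb type II receptor gene Tgfbr2 fell from 1.22, 1.29 and 1.30 to 0.73, 0.78 and 0.69 (-0.53 ± 0.06). The BMP type I receptor gene Bmpr1b fell by 0.77 on the log2 scale and the activin type II receptor gene Acvr2b by 0.56. Acvr1 rose from 2.34, 2.42 and 2.37 to 2.97, 2.96 and 2.98 (0.59 ± 0.04), the activin type I receptor gene Acvr1b by 0.39 ± 0.05 and the co-receptor gene Eng (endoglin) by 0.82 ± 0.17. Tgfbr1 had a value of 0.34 ± 0.11 (adjusted p = 0.0949). Of the receptor-regulated Smads and Smad4, 1 of 5 was called (20%, beside 9.49% of all genes), so that this share rests on 1 call. Smad3 was at 1.99 on each vehicle array and at 2.09, 2.30 and 2.22 with TGFb (0.21 ± 0.05, adjusted p = 0.0354). Its lowest TGFb array was the one on slide 3, and with slide as a block the value was 0.12 (adjusted p = 0.261). Smad2 and Smad4 had values of 0.06 ± 0.09 and 0.05 ± 0.04.

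Among ligands and their antagonists, 9 of 22 rose and 2 fell (50% called, beside 9.49% of all genes), with a median of 0.30. The largest rises were of activin antagonists. Fst, which encodes follistatin, went from -2.22, -2.33 and -2.27 to -0.12, -0.25 and -0.04 (2.14 ± 0.06, or 4.40-fold), and Fstl3 rose by 1.89 ± 0.11. The BMP antagonist gene Nog rose by 0.80 ± 0.22. Of the ligands, Tgfb3 stood at -0.29, -0.14 and -0.20 with vehicle and 0.95, 0.71 and 0.76 with TGFb (1.02 ± 0.08), while Tgfb1 (0.28 ± 0.18, adjusted p = 0.430) and Tgfb2 (-0.08 ± 0.08) did not pass the test. Bmp6 rose by 1.11 ± 0.20. Of the activin subunit genes, Inhbb rose by 0.42 ± 0.05, and Inhba fell from -5.57, -5.77 and -5.85 to -6.69, -6.76 and -6.63 (-0.96 ± 0.12, and -0.35 with normexp). Gdf11, a ligand that limits neurogenesis, fell (-0.53 ± 0.12), a call lost with slide as a block (-0.34, adjusted p = 0.083). Ltbp1 and Ltbp3, whose products hold latent TGFb in the matrix, rose by 0.32 ± 0.09 and 0.40 ± 0.05, the former without a call under the block (adjusted p = 0.144).

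**Figure D2:**
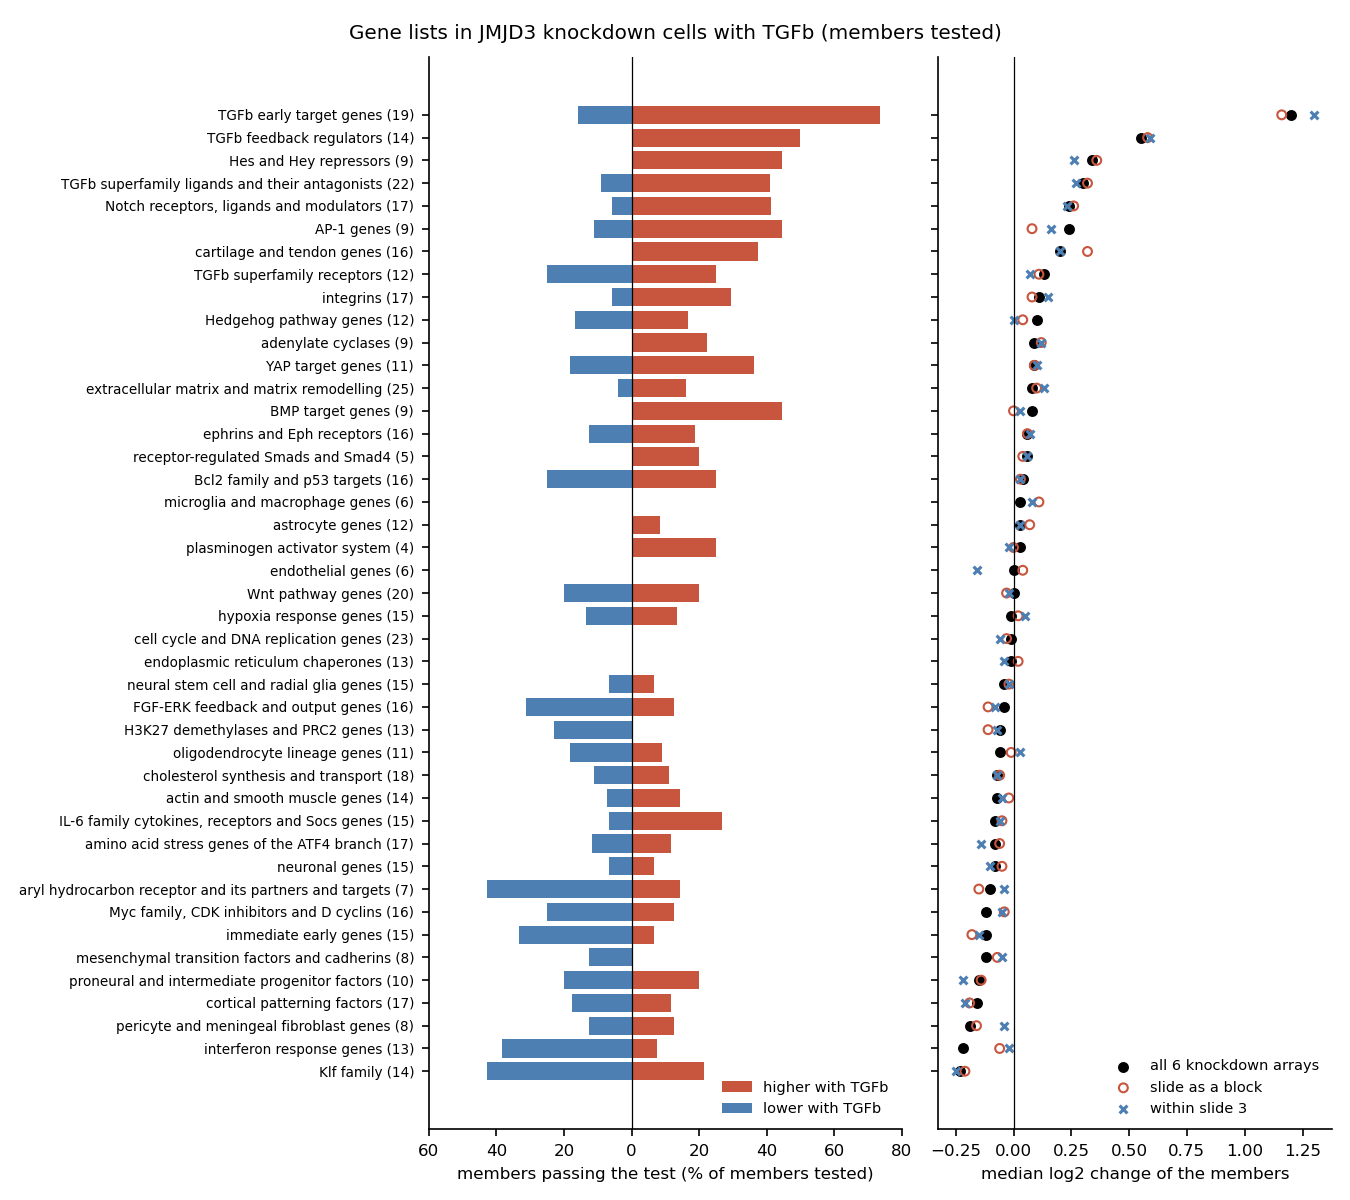
Left, the share of each gene list's measured members that were higher (red) or lower (blue) with TGFb in JMJD3 knockdown cells, in percent, with the number measured in brackets. Right, the median log2 change of the members over all 6 knockdown arrays (filled points), in the fit with slide as a block (open circles) and on slide 3 alone (crosses). Early TGFb targets have a median of 1.2 and the Klf family -0.23, and the 3 medians of the interferon response genes are -0.22, -0.06 and -0.02.

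Cartilage and tendon genes contributed several of the steepest rises. Of 16 measured, 6 rose and 0 fell (median 0.20), which is 37.5% called beside 9.49% of all genes. Col2a1, the fibrillar collagen of cartilage, went from -6.55, -6.37 and -6.50 to -1.46, -1.64 and -1.57 (probe on chromosome 15 from 97806071 to 97806130, mm9), a rise of 4.92 ± 0.10 or 30.3-fold. The tendon factor gene Scx stood at -7.16, -7.36 and -7.19 with vehicle and at -2.47, -3.01 and -2.95 with TGFb (4.43 ± 0.16, and 2.68 with normexp). Mkx, another tendon factor, rose by 1.24 ± 0.07, Runx1 by 1.32 ± 0.08 and Sox9, the factor that drives Col2a1 in cartilage, from 2.05, 1.96 and 1.94 to 2.46, 2.55 and 2.61 (0.56 ± 0.06). The cartilage proteoglycan gene Acan (-0.18 ± 0.20), Sox5 (0.18 ± 0.13) and Sox6 (-0.08 ± 0.08) did not pass the test. Beyond this list, the rise of Adcy7, an adenylate cyclase gene, was 5.06 ± 0.15, from -7.75, -7.63 and -7.26 to -2.52, -2.43 and -2.51. With normexp it was 3.04. Of the other 8 measured cyclase genes only Adcy8 rose (0.69 ± 0.11) in the main fit. With slide as a block 3 cyclase genes were called higher, 1 of them Adcy5 (0.44, limma adjusted p = 0.0136).

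Further genes with large rises had varied roles. Mep1a, which encodes a metalloprotease subunit, rose by 4.29 ± 0.11 (2.45 with normexp), Lrrc75b by 4.03 ± 0.08 and the peroxisomal oxidase gene Acox2 by 3.82 ± 0.13. Hrh3, a histamine receptor gene, rose by 3.58 ± 0.13 and the matricellular gene Ccn4 by 3.54 ± 0.14. The transcription factor gene Npas1 stood at -6.28, -6.35 and -6.00 and then at -2.59, -3.17 and -2.93, a rise of 3.31 ± 0.15. Nrip3 rose by 3.28 ± 0.08, the GTPase activator gene Arhgap22 by 3.22 ± 0.11, and the growth factor gene Fgf18 by 3.1 ± 0.11, with 3.35 from a further probe. Sema7a, a membrane-bound semaphorin gene, rose by 3.05 ± 0.10, Adamtsl2 by 3.05 ± 0.17 (1.89 with normexp) and Kcne1l by 3.02 ± 0.11, although a further Kcne1l probe gave 0.78. Over the 19 large rises shown the values within slide 3 ran from 2.92 to 5.05, and those with slide as a block from 3.00 to 5.03. Because the choice of these genes required non-overlapping arrays, their sign within slide 3 was fixed in advance.

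**Figure D3:**
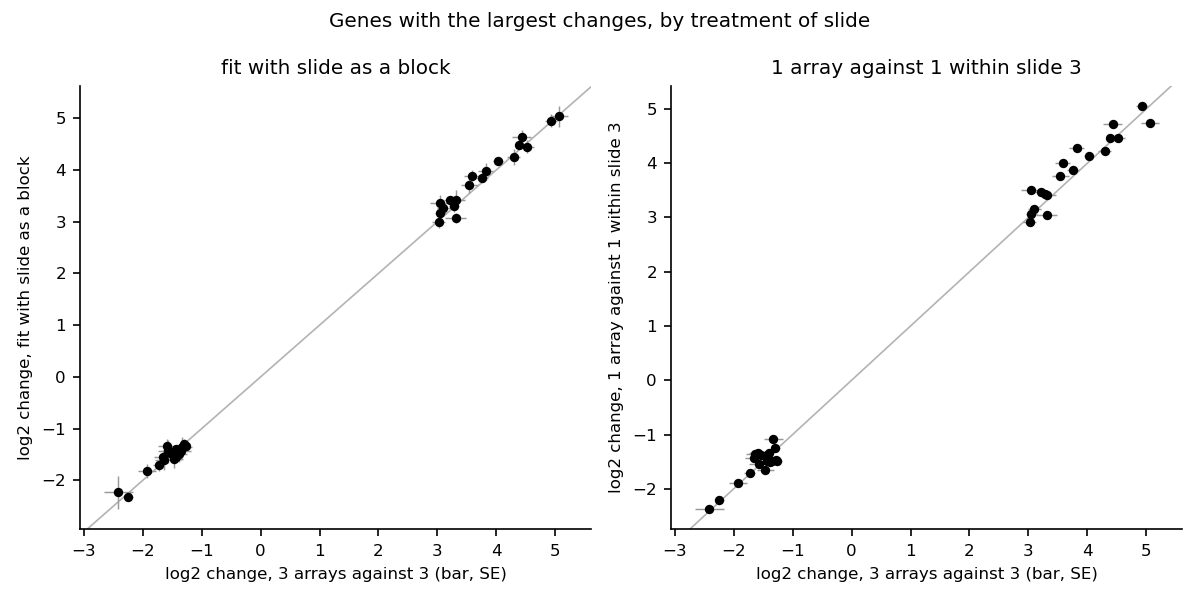
Log2 changes of 39 of the genes with the largest rises and falls over all 6 knockdown arrays (horizontal, bars show SE) against the fit with slide as a block (left, bars show SE) and against the difference of 1 TGFb and 1 vehicle array on slide 3 (right, no error). Points lie near the line of equality, and the 20 falls run from -2.37 to -1.08 within slide 3. The slide 3 pair is part of the 6 arrays, and the choice of genes required non-overlapping arrays. The sign within slide 3 was therefore fixed in advance.

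Of 25 matrix and matrix-remodelling genes, 4 rose and 1 fell at 2.5 h (median 0.08), which is 20% called beside 9.49% of all genes. Col1a1, a collagen of fibroblasts, went from -6.43, -6.33 and -6.44 to -5.20, -5.10 and -5.10 (1.27 ± 0.11, and 0.70 with normexp). The protease inhibitor gene Timp3 rose by 0.67 ± 0.12, Mmp2 by 0.55 ± 0.12 (0.34 with normexp) and Fn1, which encodes fibronectin, by 0.33 ± 0.08, while the laminin gene Lamc1 fell by 0.24 on the log2 scale. The call of Fn1 was lost with slide as a block (0.23, adjusted p = 0.132), and those of Mmp2 and Lamc1 in other alternative settings. Tnc and Col4a1 had values of -0.03 ± 0.16 and 0.18 ± 0.07. Among 17 integrin genes 5 rose and 1 fell (35.3% called, beside 9.49% of all genes). Collagen-binding Itga1 (0.75 ± 0.06) and Itga2 (0.95 ± 0.16, and 0.53 with normexp), Itgb3 (0.39 ± 0.07), Itgb5 (0.37 ± 0.05) and Itga5 (0.24 ± 0.06) rose and Itga4 fell (-0.24 ± 0.06), the last 2 only in part of the alternative settings.

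Actin genes and mesenchymal transition factors are known TGFb targets in epithelial and mural cells. Among 14 actin and smooth muscle genes 2 rose and 1 fell (21.4% called, beside 9.49% of all genes). Pdlim7 (0.73 ± 0.09) and smooth muscle actin, Acta2 (0.39 ± 0.08), rose and Srf, the factor that drives many actin genes, fell (-0.34 ± 0.08). Of 8 transition factors and cadherins 0 rose and 1 fell in the main fit, beside 9.49% of all genes called. With slide as a block 1 was called higher and 2 lower, and in control cells 2 higher and 2 lower. The highest value was that of Twist2 (0.96, adjusted p = 0.0546), which was called with slide as a block (1.18, adjusted p = 0.0357). Zeb2 fell from -0.23, -0.29 and -0.26 to -1.26, -1.09 and -1.10 (-0.89 ± 0.06, or 1.85-fold), and a further probe gave -0.69. Snai1 had a value of -0.47 ± 0.29 (adjusted p = 0.421), Zeb1 of 0.00 ± 0.05 and N-cadherin, Cdh2, of 0.13 ± 0.07. In the list of YAP targets and regulators 4 of 11 rose, namely Ccn1, Ccn2, the co-activator gene Wwtr1 (0.42 ± 0.06) and the kinase gene Lats2 (0.37 ± 0.06). Ajuba (-0.38 ± 0.07) and Arhgef17 (-0.30 ± 0.07) fell, the latter without a call under slide as a block (adjusted p = 0.0561).

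Immediate early genes, which growth factors and neuronal activity induce without new protein synthesis, moved in both directions. Of 15 measured, 5 fell and 1 rose (median -0.12), which is 40% called beside 9.49% of all genes. With slide as a block 4 fell and 2 rose. Arc, an activity-regulated gene, went from -0.99, -0.70 and -1.05 to -2.39, -2.40 and -2.84 (-1.63 ± 0.16), Egr4 fell by 1.16 on the log2 scale, and the phosphatase gene Dusp1 fell from -1.25, -1.50 and -1.48 to -2.43, -2.50 and -2.44 (-1.05 ± 0.10). Nr4a2 (-0.51 ± 0.06) and Dusp2 (-0.33 ± 0.09, no call with slide as a block, adjusted p = 0.106) fell too, and Ier3 rose by 1.70 ± 0.08. Egr1, at -0.60 ± 0.17, missed the threshold (adjusted p = 0.0522). Of 9 AP-1 genes 4 rose and 1 fell (median 0.24, 55.6% called beside 9.49% of all genes). Maff (1.26 ± 0.09), Junb (1.21 ± 0.15, and 0.76 with normexp), Fos (0.58 ± 0.10) and Jund (0.50 ± 0.05) rose, Atf3 fell (-0.81 ± 0.14), and Jun had a value of -0.20 ± 0.09. Fos had a value of 0.09 in control cells, and the difference between the lines did not pass the test (adjusted p = 0.474).

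Outputs of fibroblast growth factor and ERK signalling that fell were Dusp4 (-0.53 ± 0.07), Spred3 (-0.52 ± 0.07), and the ETS factor genes Etv1 (-0.44 ± 0.07) and Etv5, which went from 5.88, 5.97 and 5.93 to 5.60, 5.56 and 5.48 (-0.38 ± 0.08). With Fgfr2, whose call was lost under the block (adjusted p = 0.0582), 5 of 16 fell, and Spry1 (0.46 ± 0.10) and Fgfr1 (0.23 ± 0.06) rose. That is 43.8% called beside 9.49% of all genes. The phosphatase gene Dusp6 had a value of -0.22 ± 0.06 (adjusted p = 0.0518). In the Klf family of zinc finger factors 6 of 14 fell and 3 rose (64.3% called, beside 9.49% of all genes). The family had the lowest median of the 44 lists, -0.23 (-0.21 with the block, -0.25 within slide 3). Klf2 stood at -1.04, -1.14 and -1.10 with vehicle and -2.30, -2.21 and -2.19 with TGFb (-1.14 ± 0.08), and Klf6 fell by 0.85 on the log2 scale. Klf16 fell too (-0.43 ± 0.09), as did Klf3 and Klf7, both without a call under the block (adjusted p = 0.208 and 0.166). Klf4 rose from -0.83, -0.74 and -0.72 to -0.16, -0.14 and -0.11 (0.63 ± 0.06), Klf5 by 0.56 ± 0.09 and Klf9 by 0.35 ± 0.08.

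Myc, a growth-promoting factor that TGFb represses in many cells, fell from 0.47, 0.49 and 0.43 to -0.91, -0.80 and -1.09 (-1.40 ± 0.09, or 2.64-fold). Its relative Mycn moved the other way, from -4.28, -4.12 and -4.20 to -3.46, -3.38 and -3.57 (0.73 ± 0.10), and the Myc antagonist gene Mxd1 rose by 1.17 ± 0.10. Cyclin D1, Ccnd1, fell from 4.41, 4.38 and 4.30 to 3.94, 4.06 and 3.94 (-0.38 ± 0.05), a call lost with normexp (-0.31) and with the authors' deposited values (-0.33). Cdkn2d (-0.30 ± 0.07) also fell, and Ccnd2 had a value of 0.08 ± 0.06. Of 23 cell cycle and DNA replication genes 0 passed the limma test, beside 9.49% of all genes, and their median was -0.01. Their values ran from -0.11 to 1.83, the highest being that of Ccne2 (adjusted p = 0.435). With slide as a block 1 member was called higher, and in control cells 1. Mki67, a marker of cycling cells, had a value of -0.01 ± 0.06 and Mcm2 of 0.04 ± 0.07.

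Notch signalling, which keeps neural stem cells undifferentiated, had more rises than falls. Of 17 receptors, ligands and modulators 7 rose and 1 fell (median 0.24, 47.1% called beside 9.49% of all genes). Nrarp, a feedback regulator and direct target, went from -2.46, -2.43 and -2.54 to -0.79, -0.77 and -0.76 (1.70 ± 0.06, or 3.26-fold). The receptor genes Notch1 (1.11 ± 0.08, and 0.58 from a further probe), Notch4 (0.59 ± 0.07), Notch3 (0.52 ± 0.06) and Notch2 (0.40 ± 0.06) rose, as did the ligand genes Jag1 (0.54 ± 0.06) and Dlk1 (0.87 ± 0.13), while the ligand gene Dll1 fell from -0.06, -0.05 and -0.07 to -0.35, -0.34 and -0.34 (-0.29 ± 0.04). Of the 9 Hes and Hey genes, some of which Notch activates, 4 rose and 0 fell (44.4% called). Hey1 went from 1.63, 1.66 and 1.57 to 2.85, 2.69 and 2.70 (1.13 ± 0.05), and Heyl (1.91 ± 0.20), Hes3 (1.18 ± 0.18) and Hes7 (0.37 ± 0.10) rose. With normexp Heyl rose by 0.78 and Hes3 by 0.46, and Hes7 lost its call. The main repressors of cortical stem cells, Hes1 and Hes5, had values of 0.34 ± 0.29 and -0.02 ± 0.11, neither past the test.

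Genes of neural identity moved in both directions. Of 15 stem cell and radial glia genes, 13.3% were called beside 9.49% of all genes. Sox1 rose (0.34 ± 0.06) and Sox2 fell, from 2.69, 2.71 and 2.73 to 2.32, 2.38 and 2.44 (-0.33 ± 0.04), and Nes, Pax6 and Vim had values of 0.03 ± 0.08, 0.10 ± 0.10 and 0.13 ± 0.07. Of 10 proneural and intermediate progenitor genes 2 rose and 2 fell (40% called). Neurog2 rose from -5.12, -5.03 and -5.19 to -4.15, -4.21 and -4.22 (0.92 ± 0.10) and Eomes, a marker of intermediate progenitors, by 0.40 ± 0.10, a call lost in several alternatives. Gadd45g, which responds to neurogenic factors, fell from 3.62, 3.65 and 3.59 to 2.85, 2.52 and 2.81 (-0.89 ± 0.09), and the Notch ligand gene Dll1 fell by 0.29 on the log2 scale. Among the 15 neuronal genes, 13.3% of which were called, Bcl11b rose (0.72 ± 0.11), and Dcx and Tubb3 had values of -0.09 ± 0.21 and 0.12 ± 0.14.

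Patterning factors of the cortex that fell were the POU factor gene Pou3f1, from 0.67, 0.81 and 0.73 to -0.68, -0.37 and -0.49 (-1.25 ± 0.10), the dorsal factor gene Emx2 (-0.85 ± 0.08) and Otx2 (-0.43 ± 0.07). Dlx2 (0.68 ± 0.13) and Nr2f1 (0.35 ± 0.05) rose, out of 17. Of 12 astrocyte genes 1 was called (8.33%, beside 9.49% of all genes). That gene, Gfap, the intermediate filament of astrocytes, rose from -4.22, -4.07 and -4.22 to -3.77, -3.69 and -3.69 (0.46 ± 0.11, adjusted p = 0.0180). With slide as a block Gfap was not called (0.36, adjusted p = 0.112). In the oligodendrocyte lineage Olig2 fell from 3.64, 3.56 and 3.53 to 3.08, 3.18 and 3.04 (-0.48 ± 0.05), Pdgfra fell by 0.34 on the log2 scale (-0.18 with normexp, no call) and Sox8 rose by 0.76 ± 0.07, out of 11, while Sox10 had a value of 0.02 ± 0.19. Of the marker lists of other cells, 0 of 6 microglial and 0 of 6 endothelial genes passed the limma test, beside 9.49% of all genes. Lists this short can hold 0 calls at that share. Col1a1 rose and Tbx18 (-0.40 ± 0.11, no call with normexp) fell among 8 pericyte and meningeal genes, and Epor (-0.51 ± 0.07) fell among 2 erythroid genes.

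Ligands of the Hedgehog and Wnt pathways, which pattern the neural tube, also moved. Shh fell from -2.17, -2.53 and -2.46 to -3.92, -3.40 and -3.53 (-1.23 ± 0.19), and the Hedgehog co-receptor gene Gas1 fell by 0.94 on the log2 scale. The Hedgehog effector gene Gli2 (0.91 ± 0.08) and the co-receptor gene Cdon (0.46 ± 0.08) rose, and the target gene Gli1 had a value of -0.22 ± 0.07 (adjusted p = 0.0836), out of 12. Of 20 Wnt genes 4 rose and 4 fell (40% called, beside 9.49% of all genes). Dkk3 (1.05 ± 0.10), Nkd2 (1.02 ± 0.22), Tcf7l1 (0.81 ± 0.14) and Wnt7b (0.71 ± 0.08) rose. Wnt5a (-0.52 ± 0.07) and Wnt7a (-0.41 ± 0.10) fell, and Fzd8 (-0.61 ± 0.12) and Lef1 (-0.32 ± 0.09) fell without a call under the block (adjusted p = 0.0632 and 0.330). Nkd2 was at -1.81, -2.54 and -2.36 with vehicle and -1.40, -1.06 and -1.17 with TGFb, and lost its call without vehicle replicate 2. Among 16 ephrin and Eph genes, which guide contact between cells, Epha4 (1.12 ± 0.07) and Efnb1 (0.52 ± 0.06) rose and Epha2 (-0.63 ± 0.11) and Efna1 (-0.60 ± 0.11) fell. Epha7 rose by 1.11 ± 0.16 on the probe used, but a further probe gave -0.69, so that its direction is not settled. Efnb2, an ephrin ligand gene, had -0.12 ± 0.05 in knockdown cells and 0.49 ± 0.05 in control cells, and its difference of -0.60 ± 0.07 passed the test (adjusted p = 0.0143) and kept the call in 21 of 25 alternatives. It was named for this value, outside the rule for named differences.

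Among genes above background on all 6 arrays the largest falls were those of Osr2 and of Ahr, the aryl hydrocarbon receptor gene. Ahr went from -1.16, -1.01 and -1.08 to -3.29, -3.37 and -3.30, a change of -2.24 ± 0.08 or 4.71-fold (adjusted p = 9.6e-09, probe on chromosome 12 from 36182724 to 36182783, mm9). The groups lay far apart, and the control line had -1.72. Cyp1b1 and Ahrr, which the receptor induces, fell too. Cyp1b1 stood at -2.67, -2.94 and -2.83 with vehicle and -3.70, -3.39 and -3.46 with TGFb (-0.70 ± 0.10), and Ahrr, which encodes the receptor's repressor, fell by 1.57 on the log2 scale (-0.72 with normexp and -0.45 from a further probe). Another target, Tiparp, rose by 0.30 ± 0.07, a call lost with the block (adjusted p = 0.118), and the partner gene Arnt (0.07 ± 0.06) and Nqo1 (-0.10 ± 0.05) did not pass the test.

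The other large falls were of genes with various functions. Osr2, a zinc finger factor of limb and palate, went from -5.43, -5.17 and -5.17 to -7.54, -7.63 and -7.82, near the lower end of the scale (-2.41 ± 0.25, and -0.89 with normexp). The nuclear receptor gene Nr5a2 fell from -3.06, -2.83 and -2.82 to -4.52, -4.70 and -4.67 (-1.73 ± 0.10), with -1.91 from a further probe. Adm, a vasodilator peptide that hypoxia also induces, fell from -0.38, -0.16 and -0.18 to -1.60, -1.91 and -2.17 (-1.66 ± 0.14), whereas Vegfa, another hypoxia gene, rose (0.77 ± 0.09). The sulfotransferase gene Hs3st1 (-1.53 ± 0.07), the protease gene Adamts15 (-1.46 ± 0.14), Tcim (-1.44 ± 0.07), the potassium channel gene Kcnn2 (-1.44 ± 0.06) and the cytokine gene Tnfsf18 (-1.44 ± 0.08) fell. So did the factor genes Prdm1 (-1.38 ± 0.14) and Gsx1 (-1.28 ± 0.09), Ddit4l (-1.29 ± 0.07) and Jade2 (-1.26 ± 0.07). B3galt2 (-1.93 ± 0.15), Inka1 (-1.59 ± 0.15) and the myelin gene Opalin (-1.33 ± 0.16) fell by less with normexp, with -1.11, -0.91 and -0.70, and Il25 (-1.35 ± 0.17) lost its call (-0.26, adjusted p = 0.261).

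Cytokine, stress and survival genes changed one by one. Among IL-6 family genes the signal dampers Socs2 (1.26 ± 0.06, from -1.17, -1.22 and -1.36 to 0.01, -0.04 and 0.06) and Socs3 (0.21 ± 0.04, no call with the block, adjusted p = 0.0784) and the receptor gene Lifr (0.59 ± 0.10) rose. The cytokine gene Lif fell from -5.94, -5.82 and -6.10 to -7.04, -7.11 and -7.17 (-1.15 ± 0.12, and -0.35 with normexp), and Il6 was not well above background on any vehicle array. Of 13 interferon response genes 5 fell and 1 rose (46.2% called, beside 9.49% of all genes). Gbp2 (-0.93 ± 0.07), Irf9 (-0.50 ± 0.08), Irf1 (-0.38 ± 0.05), Stat2 (-0.37 ± 0.06) and Rsad2 (-0.65 ± 0.15, no call with the block, adjusted p = 0.0593) fell and Isg15 (0.41 ± 0.09) rose. Their median of -0.22 became -0.06 under the slide block and -0.02 on slide 3 alone.

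Of 16 Bcl2 family genes and p53 targets 4 rose and 4 fell, which is 50% called beside 9.49% of all genes. Pro-death members went in both directions, and with slide as a block 3 of the 16 were called higher and 2 lower. Bmf rose from -2.26, -2.23 and -2.34 to -0.31, -0.32 and -0.35 (1.95 ± 0.07), Pmaip1 (Noxa) by 1.5 ± 0.06 and Bcl2l11 (Bim) by 0.90 ± 0.10. Bbc3 (Puma) fell from 1.18, 1.26 and 1.39 to 0.60, 0.60 and 0.67 (-0.66 ± 0.08), and the p53 target Sesn1 fell as well (-0.41 ± 0.06). Bid (-0.24, no call with the block, adjusted p = 0.0978) and the survival gene Bcl2 fell too. Another survival gene, Bcl2l1, had a value of 0.22 ± 0.07 (adjusted p = 0.0854). Of the stress genes of the ATF4 branch, Slc7a11 (-0.54 ± 0.07) and Ddit3 (-0.45 ± 0.11, no call with the block, adjusted p = 0.160) fell and Slc7a5 (0.31 ± 0.05) and Cebpb (0.44 ± 0.11, no call with the block, adjusted p = 0.0920) rose, out of 17. Of 13 endoplasmic reticulum chaperones 0 passed the limma test, beside 9.49% of all genes, with Hspa5 at 0.07 ± 0.05. The cholesterol exporter gene Abca1 rose by 0.80 ± 0.06, and the synthesis genes Lss (-0.33 ± 0.08) and Msmo1 (-0.13 ± 0.03) fell, out of 18, both calls lost in several alternative settings.

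Genes for the enzymes that remove or place methyl groups on lysine 27 of histone H3 were compared because JMJD3 is one of them. Of 13 measured 0 rose and 3 fell (23.1% called, beside 9.49% of all genes). Jarid2, which recruits the polycomb complex PRC2, went from 0.19, 0.20 and 0.04 to -0.40, -0.27 and -0.33 (-0.47 ± 0.07). Phf19 stood at -0.75, -0.69 and -0.65 and then at -1.21, -1.29 and -1.22 (-0.54 ± 0.08), and Ezh1 fell by 0.31 on the log2 scale but not with slide as a block (-0.19, adjusted p = 0.245). The methyltransferase gene Ezh2 (0.11 ± 0.05) and the demethylase gene Kdm6a (-0.26 ± 0.11) did not pass the test.

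Genes at background in 1 group have only a bound, which sets the mean of the brighter group against the lowest signal counted as well above background on the arrays of the dimmer one. There were 40 called genes not well above background on any vehicle array, and 10 on any TGFb array. Within the knockdown line such genes could pass the filter on dim probes only through their brighter group. These counts therefore depend on that filter and are given only as description. Trim29 was at least 20.1-fold higher with TGFb, the forkhead gene Foxf2 at least 6.33-fold, the adhesion gene Nectin4 at least 5.64-fold, Klhl6 at least 4.77-fold and Mlph at least 3.66-fold. With normexp the log2 values were 2.13, 1.00, 1.05, 0.83 and 0.61, which lie under these bounds. The bounds hold only for the scanner software's background correction. Il6 was at least 1.24-fold and the cholesterol exporter gene Abcg1 at least 1.72-fold higher, with normexp values of 0.36 and 0.46, and Il6 lost its call with the authors' deposited values. In the other direction Dleu7 was at least 3.86-fold and Edaradd at least 1.55-fold lower with TGFb, with normexp values of -0.37 and -0.15, and Edaradd lost its call with slide as a block (adjusted p = 0.140).

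How the knockdown line's response differed from that of the control line was asked gene by gene. Of the 319 genes at least 2-fold higher in knockdown cells, 260 were also at least 2-fold higher in control cells, which is 81.5% of the 319 and 79.8% of the control line's 326. Of the 81 lower genes 56 were shared, 69.1% of the 81 and 50.9% of the control line's 110. A count past a threshold in 1 line is not a difference between the lines. The test of the difference itself called 21 genes (0.087%), 11 responding more positively and 10 more negatively in knockdown cells, while 1233 had an unadjusted p under 0.05. The median SE of a difference was 0.14.

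**Figure D4:**
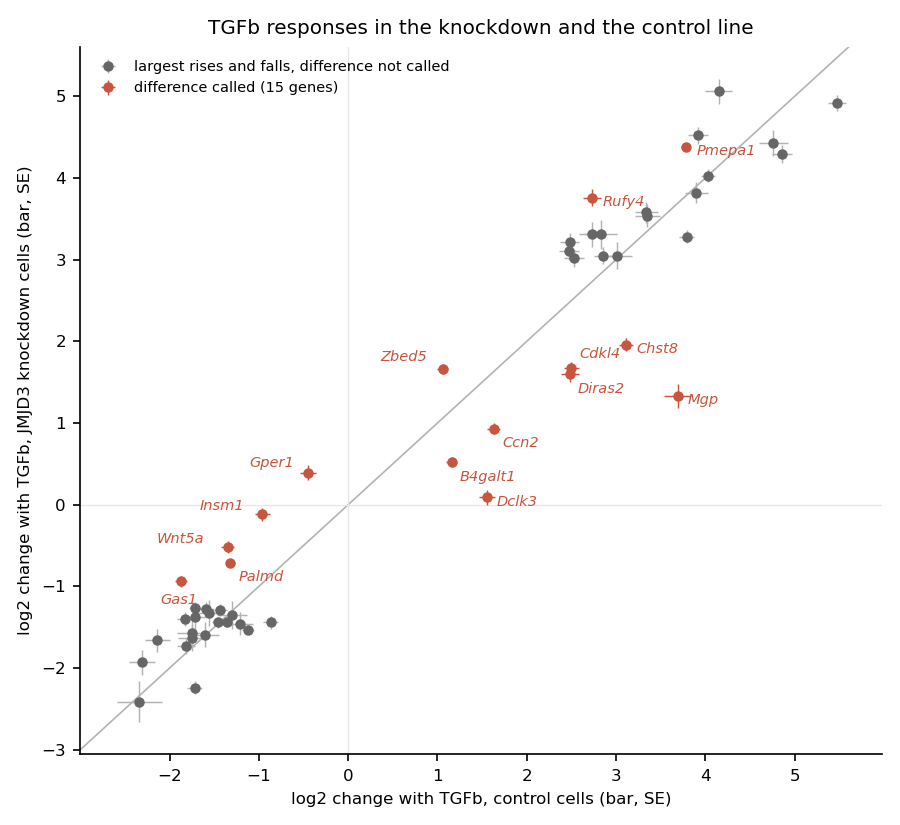
Log2 change with TGFb in control cells (horizontal) and JMJD3 knockdown cells (vertical), bars show SE, for the named genes with the largest rises and falls (grey) and 15 genes whose responses differed by the test (red). The grey line marks equal responses. Dclk3 lies at 0.09 in knockdown cells against 1.55 in control cells.

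Of the genes with a smaller rise in knockdown cells, Chst8, a sulfotransferase gene, and Dclk3, a kinase gene, kept the call in all 25 alternatives run. Dclk3 stood at -3.94, -3.61 and -3.71 on control vehicle arrays and -2.25, -2.14 and -2.23 on control TGFb arrays. In knockdown cells its values were -3.79, -3.69 and -3.82 with vehicle and -3.76, -3.67 and -3.61 with TGFb, so that those groups overlapped (probe on chromosome 9 from 111391481 to 111391540, mm9). Without TGFb the lines lay -0.01 ± 0.09 apart (adjusted p = 0.962), and the difference of responses was -1.46 ± 0.13. Chst8 reached 0.03, 0.04 and 0.00 with TGFb in control cells and -0.64, -0.83 and -0.98 in knockdown cells (difference -1.15 ± 0.12). Ccn2, which encodes connective tissue growth factor, went from 1.38, 1.69 and 1.53 to 3.1, 3.12 and 3.26 in control cells and from 1.70, 1.63 and 1.70 to 2.58, 2.61 and 2.64 in knockdown cells (difference -0.69 ± 0.10).

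In other genes the lines differed more before TGFb than after it. Mgp, an inhibitor of calcification, was 9.38-fold higher in knockdown cells without TGFb, at -4.43, -4.67 and -4.58 against -7.99, -7.98 and -7.40 in control cells. These control levels lie near the lower end of the scale, and the ratio is given only for the scanner software's background correction. With TGFb Mgp reached -3.15, -3.30 and -3.23 against -4.03, -4.13 and -4.14. Its difference of -2.35 ± 0.21 became -0.50 with normexp (adjusted p = 0.333) and -0.58 with the authors' deposited values (adjusted p = 0.122). Diras2 (-0.89 ± 0.14), Cdkl4 (-0.83 ± 0.11) and the galactosyltransferase gene B4galt1 (-0.65 ± 0.09) were also higher without TGFb in knockdown cells, by 0.91, 0.62 and 0.55. With all kept probes of B4galt1 averaged, its difference of responses was -0.38 (adjusted p = 0.968). Its call for TGFb in knockdown cells was lost in that setting too, so the result rests on the probe used. The Diras2 and B4galt1 arrays of both lines overlapped with TGFb.

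Other genes were lower in knockdown cells before TGFb. Gas1, the Hedgehog co-receptor gene, fell from 0.90, 0.80 and 0.93 to -1.07, -0.91 and -0.99 in control cells, and from 0.20, 0.07 and 0.16 to -0.94, -0.66 and -0.77 in knockdown cells. Its vehicle arrays were lower in the knockdown line (-0.73 ± 0.07), and the TGFb arrays of the lines overlapped. Wnt5a had the same pattern, with vehicle levels of 0.71, 0.70 and 0.70 against -0.19, 0.01 and -0.05, and TGFb levels of -0.58, -0.75 and -0.60 against -0.73, -0.58 and -0.49. The differences of responses were 0.93 ± 0.11 for Gas1 and 0.83 ± 0.10 for Wnt5a. Insm1, a neurogenic factor gene, fell by 0.96 on the log2 scale in control cells and had -0.12 ± 0.08 in knockdown cells (adjusted p = 0.454), where it was 3.30-fold lower already without TGFb.

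Rufy4 (1.03 ± 0.15), Pmepa1 (0.60 ± 0.08) and Zbed5 (0.60 ± 0.09) rose more in knockdown cells and were lower there without TGFb, by 0.78, 0.42 and 0.60. Palmd fell less in knockdown cells (0.61 ± 0.07), from levels of 2.65, 2.69 and 2.73 to 1.89, 2.04 and 2.00, against 1.63, 1.55 and 1.57 to 0.23, 0.32 and 0.25 in control cells. Gper1, a membrane oestrogen receptor gene, was the 1 gene of the 16 named for a difference that rose in knockdown cells (0.39 ± 0.09) and fell in control cells (-0.45 ± 0.09), with a difference of 0.84 ± 0.12 that 9 of 25 alternatives kept. Of all genes tested, 6719 differed between the lines without TGFb.

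**Figure D5:**
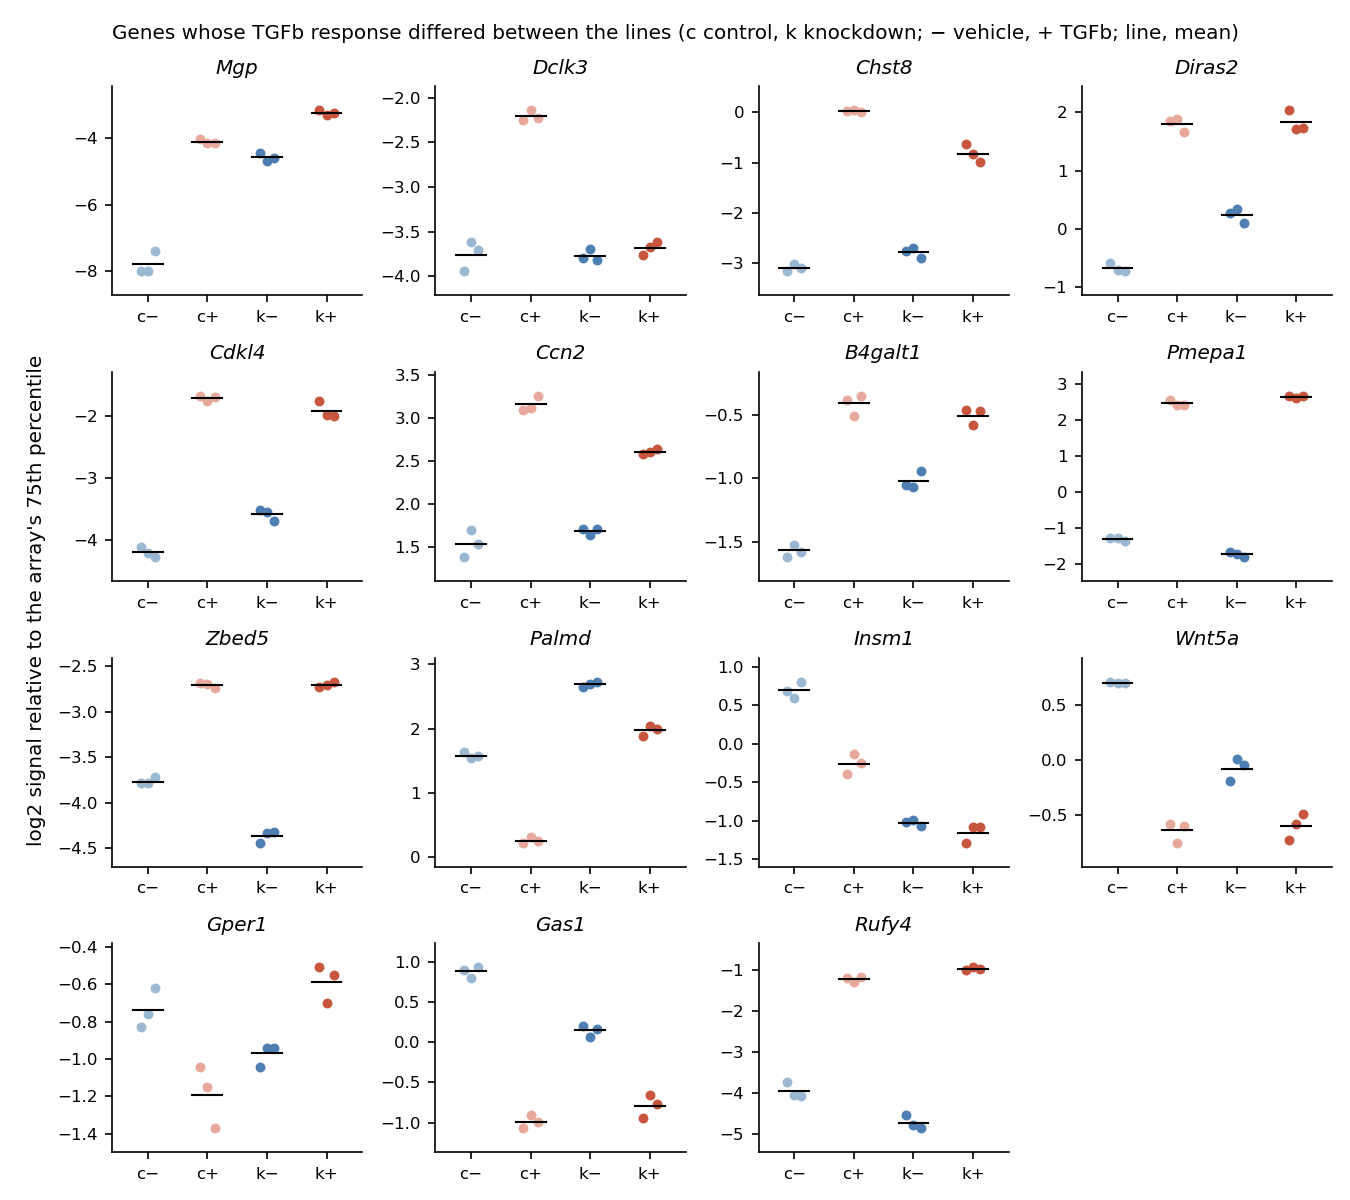
Log2 signal (75th percentile of the array set to 0) on each of the 12 arrays for 15 genes whose TGFb response differed between control (c) and JMJD3 knockdown (k) cells, with vehicle (−) and TGFb (+). Black lines are group means of 3 arrays and each panel has its own scale. For Gas1, Wnt5a and Diras2 the lines differ with vehicle and overlap with TGFb, whereas for Dclk3 they overlap with vehicle.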

How the data were processed

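RNA from 12 samples was hybridised to 1-colour Agilent arrays, 3 for each of 4 groups, grouped by the labels. Per the file headers, the deposited intensity values are the processed signals of Feature Extraction 10.7.3.1 (1 array a file, background-subtracted and detrended, probe positions on mm9). The authors' deposited table holds log2 values, whose normalization is not given in the sources used here. It was used only as an alternative.

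The 1377 control spots were dropped, repeat spots were averaged per probe, and log2 of the signal was taken relative to the array's 75th percentile. Of 39429 probes, the 29972 that passed the filter on dim probes stood for 24139 genes, with the brightest probe used for each. That filter asked that all 3 arrays of at least 1 of the 4 groups be well above background. Probes were named through their accessions where RefSeq tables held them (26055 probes) and otherwise by the files. limma 3.58.1 (R 4.3.3) fitted 1 mean per group over all 12 arrays (lmFit, eBayes with a trend, two-sided, Benjamini-Hochberg). The code was tested on simulated data.

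The genes named are Kdm6b, the 20 largest rises and falls above background with non-overlapping arrays, up to 5 bounds each way, up to 6 members of each of 44 gene lists by p, and up to 8 differences between the lines each way. Clone names were passed over. A few of the genes so chosen are left out of the text. Other list members, including all named without a call, Bmp6, Nog, Dlk1, Tgif2, Notch2, Klf3, Klf7, Klf9, Fgfr2, Lef1, Wnt7a, Tsc22d1, Ltbp1, Gdf11 and Bcl2 among the called, Efnb2, and the promoters shown were chosen after their values were seen. The comparison, lists and tests were chosen with earlier results of these data known.

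Replicate numbers were not used as pairs in the main fit. Deviations of knockdown arrays with the same number correlated at -0.53, -0.11 and -0.09. With 3 arrays a group, these values cannot decide whether the samples were paired. Alternatives covered background correction (normexp, offset 50), scaling, the dim-probe filter, the probe rule, the authors' values, slide and replicate blocks, array weights, and each array left out.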

Additional observations from a re-analysis of the deposited data

Results flagged for a closer look

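The TGFb responses of 16 genes named here differed between the knockdown and the control line by a limma test of the difference itself. Each value is the log2 change in knockdown cells minus that in control cells, and all 16 kept their direction in the 25 alternatives run. The response was higher in knockdown cells for Rufy4 (1.03), Gas1 (0.93), Gper1 (0.84), Insm1 (0.83), Wnt5a (0.83), Palmd (0.61), Zbed5 (0.60) and Pmepa1 (0.60). It was lower for Mgp (-2.35), Dclk3 (-1.46), Chst8 (-1.15), Diras2 (-0.89), Cdkl4 (-0.83), Ccn2 (-0.69), B4galt1 (-0.65) and Efnb2 (-0.60).

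The number of alternatives that kept the call was 25 for Chst8 and Dclk3, 23 for Gas1 and Mgp, 21 for Efnb2 and Wnt5a, 20 for Palmd and 17 for Pmepa1. It was 14 for Rufy4 and Cdkl4, 12 for B4galt1 and Insm1, 11 for Ccn2, 9 for Gper1, 8 for Diras2 and 6 for Zbed5.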

How the results depend on the processing

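Of 208 named genes called, 0 changed direction in any alternative run and 154 lost their call in none in which they were tested. The alternative that required signal well above background on all 12 arrays left out dim genes and held 280 of the 297 results checked. Some values that did not pass the test changed sign, such as Hspa5 (0.07, and -0.01 with the authors' values). With normexp, 668 genes were lower and 222 changed at least 2-fold, and rises were 59.2% of 1637 calls against 49.9% of 2290. Scaling to the array median gave 1470 calls, 678 lower, and 7 differences between the lines, and the authors' values gave 210 changes of at least 2-fold. Slide as a fixed block gave 45 differences and, as a random block, 95. With the fixed block, rises were 58.5% of 1904 calls. The replicate block gave 1870 calls and 11 differences. Estimated array weights gave 5302 calls, 2358 higher and 2944 lower, and 94 differences. At an adjusted p under 0.01, 1391 genes were called, and a test against a 1.5-fold change called 341. Slide as a fixed block without JMJD3 knockdown vehicle replicate 3, chosen after seeing the data, gave 1388 calls, 512 lower (63.1% higher). With each array left out in turn, calls ranged from 1612 to 2421, higher from 879 to 1166, lower from 655 to 1255, changes of at least 2-fold from 368 to 404, and differences from 4 to 27. Lower calls were 655 and 739 without knockdown vehicle replicates 2 and 3, and 751 and 708 without knockdown TGFb replicates 2 and 3. Differences were 4 without control vehicle replicate 3 or knockdown TGFb replicate 3, 6 without control TGFb replicate 3, 7 without knockdown TGFb replicate 2, 8 and 11 without knockdown vehicle replicates 2 and 3, and 13 without control TGFb replicate 1 or 2. The calls of Acta2, Arhgef17, Bid, Cdkn2d, Cebpb, Ddit3, Dusp2, Edaradd, Eomes, Ezh1, Fgfr1, Fn1, Gfap, Gper1, Hes7, Isg15, Itga4, Itga5, Lss, Mmp2, Msmo1, Nkd2, Rsad2, Smad3, Spry1, Srf, Tbx18 and Tiparp were each lost when at least 1 single knockdown array was left out. The causes were not tested. Signal over background limits the dimmest genes: 67 genes that rose at least 2-fold were not above background on all vehicle arrays, and 35 named genes had values over 1.5 times smaller with normexp. Knockdown arrays of both treatments shared only slide 3, so slide and treatment are only partly separable.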
